A study of Mus musculus with 6 samples.

Results

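Cytosolic nucleic acid sensors are the proteins that recognise RNA or DNA in the cytoplasm, here together with the adaptors that pass their signal on and the enzymes that edit or degrade the nucleic acids they would bind. The set comprised 10 genes, chosen by symbol from the 23366 genes of the table: Ddx58 (RIG-I), Ifih1 (MDA5), Dhx58 (LGP2), Mavs, Tmem173 (STING), Zbp1, Eif2ak2 (PKR), Adar, Trex1 and Ifi204. RNA was sequenced from the brain cortex of 3 control mice (A1, A2 and A3) and 3 microglia-depleted mice (A4, A5 and A6), with 1 library per mouse. All 6 mice were on a C57BL/6 background and carried 1 copy of CX3CR1-CreERT2, a tamoxifen-inducible Cre driven by the Cx3cr1 promoter, which is active in microglia and other macrophages. The depleted mice also carried 1 copy of iDTR, which gives Cre-expressing cells the diphtheria toxin receptor, and were taken 10 days after depletion with tamoxifen followed by diphtheria toxin. Control mice were littermates without iDTR that received tamoxifen. Whether they received the toxin, and the exact age of the adult mice, are not given in the sources used here, so the loss of microglia, the toxin and the iDTR allele cannot be told apart. By the authors' account microglia have repopulated the brain of such mice by this time.

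RIG-I and MDA5 are helicases that bind double-stranded RNA and signal through MAVS on mitochondria, and LGP2 is a related helicase that lacks the signalling domains and tunes the other helicases. DNA in the cytoplasm is sensed mainly by cGAS, whose cyclic dinucleotide product activates STING. Both routes converge on the kinase TBK1 and the transcription factors IRF3 and IRF7, which drive type I interferon, and interferon in turn raises the transcription of many of the sensors themselves. In the brain, microglia and astrocytes are known to carry these pathways, and loss of TREX1 or ADAR1 function causes an interferon-driven disease of the nervous system, the Aicardi-Goutières syndrome.

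Expression is given as FPKM, the fragments per kilobase of transcript per 1 M fragments, as the authors deposited it after TMM scaling between libraries. Depth differed between the libraries: the spacing of low values gave estimates of 14.7 M fragments for A1, 20.5 M for A2, 18.4 M for A3, 13.8 M for A4, 3.56 M for A5 and 11.3 M for A6. For A5 a depth 2 times as large also fits the spacing, but there only 6.04% of its low values would be odd numbers of fragments, against 69.9% at 3.56 M, and the smaller depth is used. In A5 the value of 1 fragment on a transcript of 1 kb was therefore 0.281 FPKM, against 0.0488 to 0.0887 FPKM in the other mice. Depleted mouse A4 stood apart from the rest. Its median correlation with the other mice, across the 14385 genes tested, was 0.9725, against 0.9817 to 0.9858 for the other 5 mice. The summed FPKM of the Y-linked genes Ddx3y, Eif2s3y, Kdm5d and Uty was 5.56 in A4 and no more than 0.16 in any other mouse. Xist was at 4.74 FPKM in control mouse A3 and at 30.86 to 46.66 FPKM in the other mice, A4 among them, so A3 also differs in a sex-linked gene. The sensor genes are given with and without A4 because of its place apart. All 7 genes of a list of cortical markers were present in every mouse, with Neurod6 at 23.11 to 32.38 FPKM in control and 20.07 to 24.11 FPKM in depleted mice.

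Most of the sensor genes were far higher in A4 than in any control mouse, while in A5 and A6 most were close to the control mice. The largest ratios to the control mean were 6 for Ifi204 and 2.81 for Zbp1 in A6, and 2.47 for Ifi204 and 1.92 for Tmem173 in A5. The RNA helicases, Zbp1, Eif2ak2, Ifi204 and Trex1 were high in A4, whereas Mavs, Tmem173 and Adar in A4 were near the level of the control mice. A4 had the highest value of the 6 mice in 8 of the 10 genes, as it did in 26.8% of all genes tested. In Zbp1 and Ifi204 this was all but fixed, as both reached the mean of 0.5 FPKM needed for testing only through A4. The others were Ddx58, Ifih1, Dhx58, Mavs, Eif2ak2 and Trex1. On the log2(FPKM + 1) scale, the median difference from the control mean over the 10 genes was 1.51 for A4, 0.23 for A5 and 0.09 for A6. These medians include Zbp1 and Ifi204. Over all genes tested they were -0.007, -0.010 and -0.001.

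**Figure D1:**
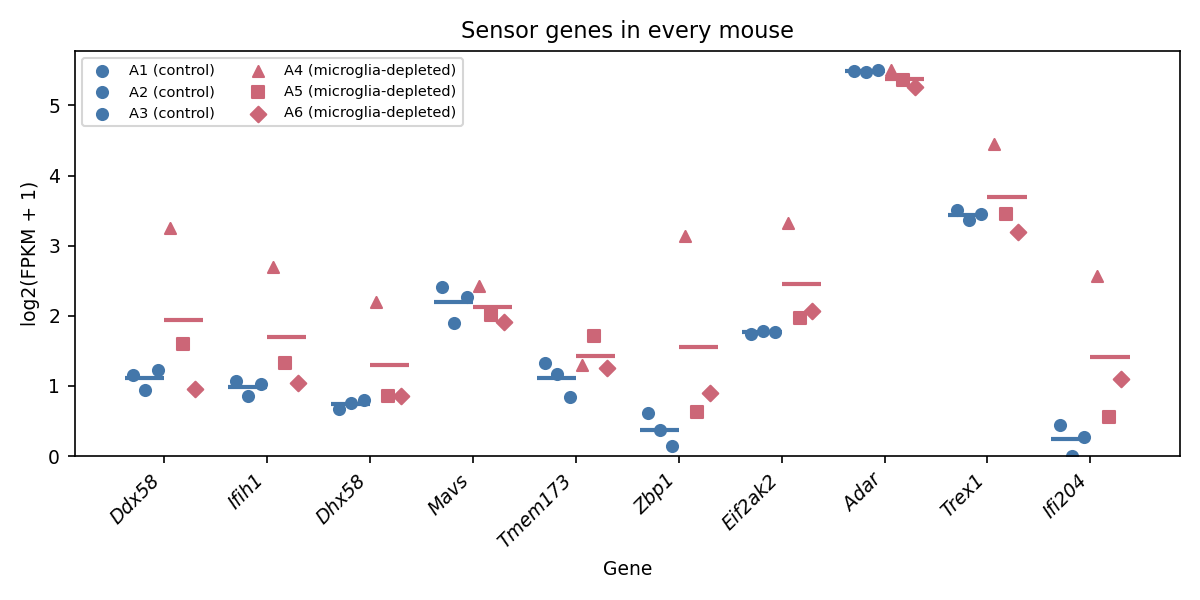
Level of each sensor gene in every mouse, as log2(FPKM + 1), with control mice in blue, depleted mice in red and horizontal lines at the group means. A4, the triangle, lies far above the other mice in Ddx58, Ifih1, Dhx58, Zbp1, Eif2ak2, Trex1 and Ifi204, and close to control mice in Mavs, Tmem173 and Adar.

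Limma was used to compare the groups on log2(FPKM + 1) over the 14385 genes whose mean over the mice reached 0.5 FPKM. This scale understates the change of genes with low FPKM: with a pseudocount of 0.1 in place of 1, the log2 fold change of Zbp1 was 2.20 instead of 1.18 and that of Ifi204 was 2.65 instead of 1.17. Of the 10 sensor genes, 0 passed in limma at a Benjamini-Hochberg adjusted p-value under 0.1, against 4 of all genes tested (0.0278%), and 1, Ifi204, had an unadjusted p-value under 0.05, against 10.5% of all genes. The mean log2 level was higher in depleted mice in 8 of the 10 genes and in 48% of all genes tested. Their median log2 fold change was 0.62, against -0.0085 over all genes. All 10 genes passed the filter, but Zbp1 and Ifi204 did so through A4, as their mean over the other 5 mice was under 0.5 FPKM. The remaining 8 genes had a median of 0.43. The groups did not overlap, with the depleted mice higher, in 4 of the 10 genes (Dhx58, Zbp1, Eif2ak2 and Ifi204), against 8.21% of all genes tested, and in 2 of the 8 genes that pass the filter without A4. For such a gene the exact two-sided permutation test gives p = 0.1, the smallest that 3 mice against 3 allow.

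With A4 left out, the median log2 fold change of the 10 genes was 0.19, or 0.14 over the 8 genes, against -0.0083 over all genes tested. The log2 fold change was above 0 in 7 of the 10 genes (47.9% of all genes), and the same 4 genes, which leaving out a mouse cannot bring to overlap, had depleted mice above control mice (14.5% of all genes). In 1 gene, Adar, the depleted mice then lay below the control mice (15.7% of all genes). Again 0 of the 10 genes passed at an adjusted p-value under 0.1 in limma (0.0278% of all genes), and Adar and Ifi204 had an unadjusted p-value under 0.05 (13.2% of all genes). A4 is also the library with Y-linked RNA and with the highest level of several markers given below, and the part of these in the sensor values was not tested.

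**Figure D2:**
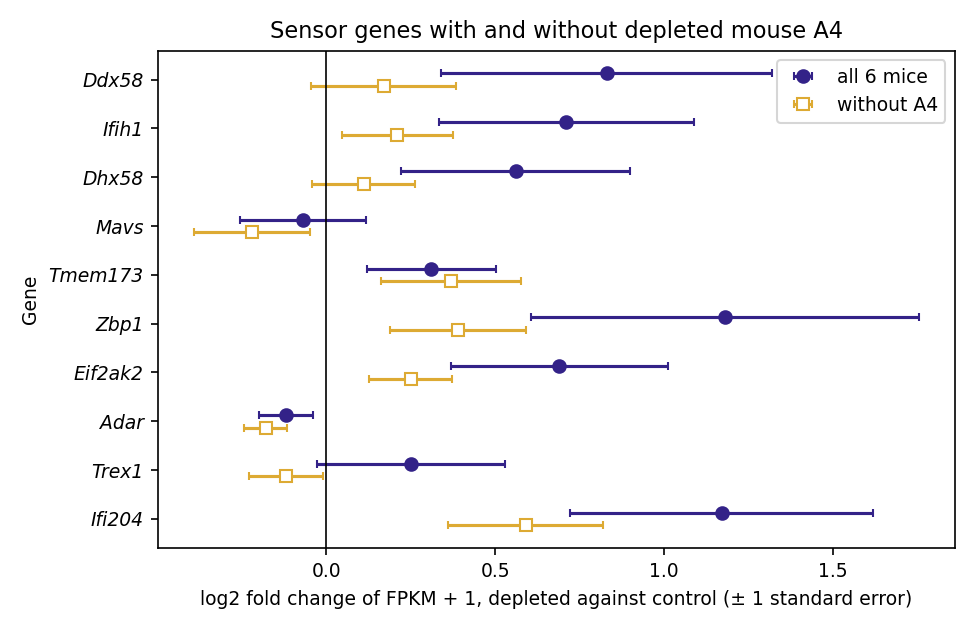
Log2 fold change of FPKM + 1 in depleted against control mice for each sensor gene, with bars of 1 standard error from limma, over all 6 mice (filled) and without A4 (open). Without A4 the standard errors are smaller for 9 of the 10 genes (all but Tmem173), and Ddx58, for example, moves from 0.83 to 0.17.

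Windows from 250 bases before to 50 bases after an annotated start were available from RefSeq (GRCm38.p6) for 6 of the 10 genes, in 9 windows: Ddx58, Ifih1, Mavs and Eif2ak2 had 1 each, Trex1 had 2 and Adar had 3. Both strands were searched for elements through which interferon raises transcription and for the kappa B motif, because interferon is known to induce many sensors. The core of the interferon-stimulated response element, GAAA repeated after 2 bases, was found in the windows of Ddx58, Ifih1 and Eif2ak2 and in 3.44% of all 32851 windows of the same length. Its form with a spacer of 1 base, GAAANGAAA, was found for Ddx58 and for the Adar start that lies furthest downstream, and in 3.17% of all windows. TTCNNNGAA, the gamma-activated sequence, was found for that Adar start and for Eif2ak2, and in 8.3% of all windows. The kappa B motif matched 0 of the 9 windows and 4.51% of all windows. The Mavs and Trex1 windows held none of these letters. The sequences with a match are printed 5′ to 3′ on the strand of the gene, with matching letters in capitals.
Ddx58: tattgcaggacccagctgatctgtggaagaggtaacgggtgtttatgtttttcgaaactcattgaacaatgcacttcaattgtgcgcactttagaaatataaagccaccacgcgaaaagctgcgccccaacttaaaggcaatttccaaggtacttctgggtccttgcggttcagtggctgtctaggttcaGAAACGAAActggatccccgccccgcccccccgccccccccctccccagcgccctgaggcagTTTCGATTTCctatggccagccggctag
Eif2ak2: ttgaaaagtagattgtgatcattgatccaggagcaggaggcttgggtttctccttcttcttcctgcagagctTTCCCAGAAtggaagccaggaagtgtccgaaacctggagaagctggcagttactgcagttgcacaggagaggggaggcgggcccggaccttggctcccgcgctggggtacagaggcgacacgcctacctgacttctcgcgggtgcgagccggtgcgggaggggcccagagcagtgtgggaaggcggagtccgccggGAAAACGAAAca
Ifih1: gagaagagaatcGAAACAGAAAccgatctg
Adar: gaagccttTTCAAGGAAACGAAAgtgaact
The Ddx58 sequence (chr4:40239796-40240075, minus strand) runs to 30 bases past the annotated start at 40239825; its first capitals begin 60 bases before the start, and its second, which are the core of the response element read on the other strand, begin at base 3 of the transcript. The Eif2ak2 sequence (chr17:78882543-78882822, minus strand) likewise ends 30 bases past the start at 78882572, with TTCNNNGAA beginning 178 bases before the start and the core of the response element at base 19 of the transcript. For Ifih1 (chr2:62646206-62646235, minus strand) and Adar (chr3:89730732-89730761, plus strand) only the 30 bases around the match are shown, which lie past the annotated start, and the capitals begin at base 33 of Ifih1 and base 23 of Adar. In Adar, GAAANGAAA overlaps the end of TTCNNNGAA. A match describes the letters only, and binding was not measured.

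Among the RNA helicases, Ddx58 was at 1.23, 0.92 and 1.35 FPKM in A1, A2 and A3, the order used for control mice below, against 8.50, 2.03 and 0.95 in A4, A5 and A6, the order used for depleted mice. A4 was 4.19 times the next highest mouse, A5 was above the control mice, and A6 lay among them, so the groups overlapped. Its log2 fold change was 0.83 (adjusted p = 0.581 in limma, standard error 0.49) with all mice and 0.17 (standard error 0.215) without A4. Ifih1 was at 1.09, 0.81 and 1.03 FPKM in control mice against 5.49, 1.52 and 1.06 in A4, A5 and A6. The order of the mice was like that of Ddx58, with A4 and A5 above the control mice and A6 between A1 and A3. The log2 fold change of Ifih1 was 0.71 (adjusted p = 0.54 in limma, standard error 0.378) with all mice and 0.21 without A4. Dhx58, the regulatory helicase, was at 0.59, 0.69 and 0.74 FPKM in control mice against 3.58, 0.81 and 0.81 in depleted mice. A5 and A6 lay just above the highest control mouse. For A5 the Dhx58 value rested on about 7 fragments, with an exact Poisson 95% interval of 0.328 to 1.68 FPKM that covers counting error only and includes every control value. For A6 the Dhx58 value rested on about 22 fragments, and its interval of 0.506 to 1.22 FPKM also includes every control value. Its log2 fold change was 0.56 (adjusted p = 0.59 in limma, standard error 0.338) with all mice and 0.11 without A4.

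Mavs, the adaptor of RIG-I and MDA5, was at 4.30, 2.71 and 3.84 FPKM in control mice against 4.39, 3.05 and 2.78 in A4, A5 and A6. The groups overlapped throughout, and A4 was only 1.02 times the next highest mouse. The log2 fold change was -0.07 (adjusted p = 0.919 in limma, standard error 0.187) and -0.22 without A4, and it changed sign without A1 or without A6, to 0.04 and 0.03. The summed FPKM of the 3 helicases was 0.677, 0.893 and 0.813 times the Mavs level in A1, A2 and A3, and 4, 1.43 and 1.01 times it in A4, A5 and A6. Each depleted mouse was above each control mouse in this ratio, with A4 far above the rest. The helicase sum itself was 17.6 and 4.36 FPKM in A4 and A5. In A6 it was 2.82 FPKM, among the control mice at 2.42 to 3.12 FPKM. The ratio was formed after the values were seen and was not tested.

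Zbp1, a sensor of Z-form nucleic acids that can start necroptosis, was at 0.53, 0.29 and 0.11 FPKM in control mice against 7.82, 0.55 and 0.87 in A4, A5 and A6. A4 was 8.99 times the next highest mouse, the widest gap among the 10 genes, and A5 was level with A1. In A5 about 4 fragments lay behind the Zbp1 value, with an exact Poisson 95% interval of 0.154 to 1.45 FPKM, against about 215 fragments in A4. On the log2 scale the fold change was 1.18 (adjusted p = 0.513 in limma, standard error 0.573) with all mice and 0.39 without A4. Eif2ak2, the kinase PKR that halts translation when it binds double-stranded RNA, was at 2.34, 2.44 and 2.41 FPKM in control mice against 9.04, 2.90 and 3.19 in depleted mice. The control mice differed little, all 3 depleted mice were above them, and A4 was 2.83 times the next highest mouse. For A5 the Eif2ak2 value rested on about 45 fragments, with an exact Poisson 95% interval of 2.14 to 3.92 FPKM that includes every control value. Its mean was 2.4 ± 0.0513 FPKM (SD, n = 3) in control mice against 5.04 ± 3.46 FPKM (SD, n = 3) after depletion, with a log2 fold change of 0.69 (adjusted p = 0.498 in limma, standard error 0.322) with all mice and 0.25 without A4.

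Adar, which edits adenosine to inosine in double-stranded RNA and so keeps the cell's own RNA from MDA5 and PKR, was by far the most abundant of the 10 genes. It was at 44.04, 43.64 and 44.42 FPKM in control mice against 44.27, 40.02 and 37.56 in A4, A5 and A6. A4 lay among the control mice, and A5 and A6 lay below them. On the log2 scale the fold change was -0.12 (adjusted p = 0.63 in limma, standard error 0.0803), and without A4 it was -0.18 (standard error 0.0635, unadjusted p = 0.0235 and adjusted p = 0.321 in limma). The table has 1 value per gene, so transcripts from the start with matching promoter letters and those from the other starts cannot be told apart. Exons of Chrnb2 on the opposite strand cover 16.8% of the exon bases of Adar. Chrnb2 was at 12.16 to 15.59 FPKM with overlapping groups, and reads of the shared bases cannot be assigned to a strand here.

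On the DNA side, Tmem173, the adaptor STING, was at 1.50, 1.25 and 0.80 FPKM in control mice against 1.47, 2.27 and 1.38 in A4, A5 and A6. Here A5, not A4, was the highest mouse, A4 and A6 lay among the control mice, and the groups overlapped. Its log2 fold change was 0.31 (adjusted p = 0.597 in limma, standard error 0.191) with all mice and 0.37 without A4. Ifi204, a PYHIN protein that binds DNA, was at 0.36 and 0.21 FPKM in A1 and A3 and listed at 0 in A2, against 4.93, 0.47 and 1.14 in depleted mice. A4 was highest, A6 was well above the control mice, and A5 was near A1, with about 4 fragments and an exact Poisson 95% interval of 0.133 to 1.25 FPKM. Its log2 fold change was 1.17 (standard error 0.448, unadjusted p = 0.03 and adjusted p = 0.438 in limma) and 0.59 without A4 (unadjusted p = 0.0345 and adjusted p = 0.349 in limma). Transcripts of other genes contain 13.2% of the 75-base windows of Ifi204, most of them the PYHIN gene listed as Mnda, named Ifi211 in current annotation, with 11.3%, so some reads could be split between them.

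Trex1, the exonuclease that degrades DNA in the cytoplasm, was at 10.41, 9.28 and 9.96 FPKM in control mice against 20.77, 9.96 and 8.15 in A4, A5 and A6. A4 was high, A5 lay among the control mice and A6 below them. The log2 fold change of Trex1 was 0.25 (adjusted p = 0.769 in limma, standard error 0.278) and turned to -0.12 without A4. Trex1 is annotated within Atrip on the same strand, 93.4% of its 75-base windows also occur in Atrip transcripts, and its level is uncertain for that reason. Atrip itself was at 8.49, 7.50 and 8.42 FPKM in control against 10.73, 9.44 and 7.57 FPKM in depleted mice, with overlapping groups and A4 highest. The other 8 genes shared 0 such windows with any other gene.

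**Figure D3:**
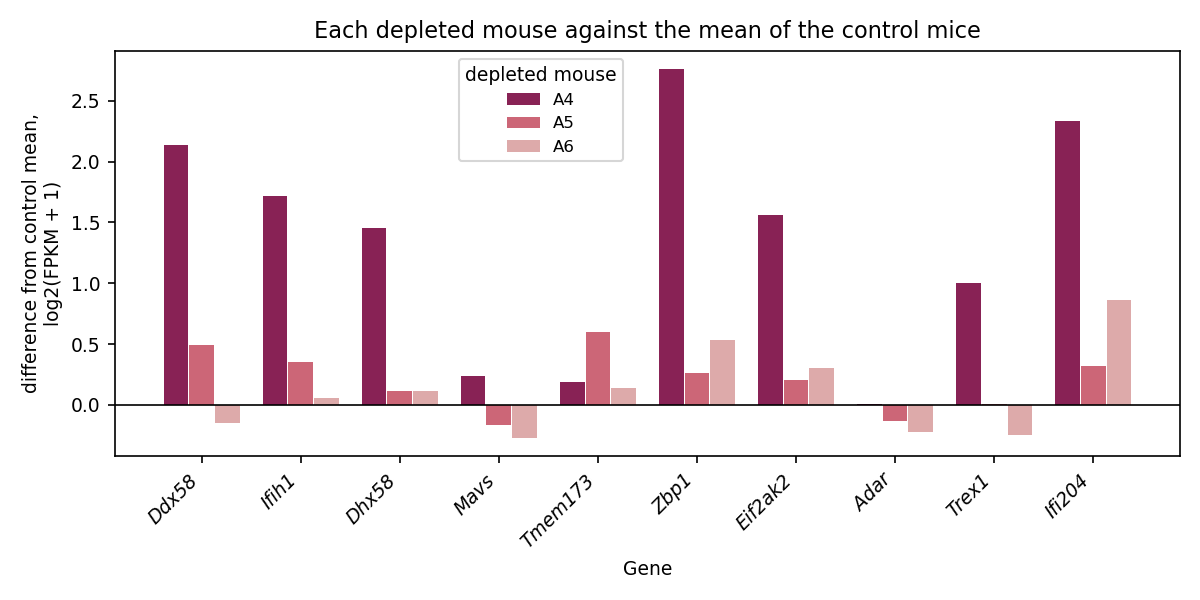
Difference of each depleted mouse from the mean of the 3 control mice on the log2(FPKM + 1) scale, with 1 bar per mouse and gene. A4 ranges from 0.01 in Adar to 2.76 in Zbp1, whereas A5 and A6 range from -0.27 to 0.86.

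FPKM is corrected for transcript length, so the levels of the 10 genes can be ordered, apart from that of Trex1, whose place is uncertain because of Atrip. By control mean the order was Adar, Trex1, Mavs, Eif2ak2, Tmem173, Ddx58, Ifih1, Dhx58, Zbp1 and Ifi204. Adar held 66.3, 70.4 and 68.5% of the summed FPKM of the 10 genes in A1, A2 and A3, and 40.2, 62.9 and 64.9% in A4, A5 and A6. Among neighbours in this order, Tmem173 at 1.18 ± 0.355, Ddx58 at 1.17 ± 0.222 and Ifih1 at 0.977 ± 0.147 FPKM (SD, n = 3 each) did not differ beyond their spread, and Zbp1 and Ifi204 traded places in A3. In A4 the order was Adar, Trex1, Eif2ak2, Ddx58, Zbp1, Ifih1, Ifi204, Mavs, Dhx58 and Tmem173, so that both adaptors stood below most of the sensors. In A5 the order was the same as that of the control means, and in A6 Eif2ak2 was above Mavs, Ifi204 was in place 6 and Dhx58 was last.

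The genes around the sensors were taken from 9 lists of 128 genes in all, of which 126 were in the table and 94 were tested. With limma 0 of the 94 had an adjusted p-value under 0.1, while 17 were higher and 0 lower at an unadjusted p-value under 0.05, against 4.79 and 5.74% of all genes tested. The 94 include Ddx60, Mnda, Pydc3, Oasl1 and Mx1, which passed the filter through A4, and the 17 include Mnda and Mx1. Without A4 there were 11 higher and 3 lower, where 13.2% of all genes tested were under 0.05 in either direction. The share of all genes in each direction was not taken there. Of the 17, 8 were output genes, which interferon or IRF factors induce. Without A4, output genes were 8 of the 11 higher genes and 0 of the 3 lower. In that list of 10, every gene was higher on average (48% of all genes) and highest in A4 (26.8% of all genes). The median log2 fold change was 1.90, or 0.92 without A4. Mx1, which is among the 8, and Oasl1 passed the filter through A4, which all but fixed A4 as their highest mouse. The other 8 genes of the list had a median of 2.06, or 1.13 without A4. Cxcl10, a chemokine, was at 1.23, 0.13 and 0.69 FPKM in control mice against 42.11, 5.07 and 3.38 in A4, A5 and A6 (log2 fold change 2.69, adjusted p = 0.37 in limma, 1.67 without A4). For Ccl5 the depleted mice were at 11.67, 2.10 and 9.50 FPKM, all above the control mice, which were at 0.20 to 0.37 FPKM (log2 fold change 2.55, or 2.17 without A4). Ifit3 was at 6.55 to 11.44 FPKM in control and at 132.26, 27.80 and 23.44 FPKM in depleted mice (log2 fold change 2.30, or 1.53 without A4). Ifit2 had the smallest log2 fold change of the list, 0.69 (0.11 without A4), and A6 at 3.87 FPKM lay among control mice at 3.53 to 4.13 FPKM. The groups did not overlap, with the depleted mice higher, in 8 of the 10 output genes, Mx1 among them, against 8.21% of all genes tested. In Cxcl10, Ccl5 and Ifit3, unlike most sensors, A5 and A6 stood above the control mice by a wide margin. In Ifit2 and Oasl1 A6 lay among the control mice.

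In the list of 17 kinases, TRAF proteins and transcription factors downstream of MAVS and STING, 16 were tested and 5 were higher on average, with a median log2 fold change of -0.06, or -0.04 without A4. The largest was Irf7, itself induced by interferon, at 25.81, 4.14 and 3.75 FPKM in depleted mice against 0.64 to 1.82 FPKM in control mice (log2 fold change 2.12, adjusted p = 0.378 in limma, 1.30 without A4). Irf5 followed at 0.41 (0.36 without A4), with depleted mice at 1.66 to 2.20 FPKM and control mice at 1.06 to 1.42 FPKM. The kinase gene Tbk1 was at 15.57 to 18.52 FPKM in control and 17.74 to 22.76 FPKM in depleted mice, with overlapping groups (log2 fold change 0.19, or 0.09 without A4). Irf3, the factor that both adaptors activate, had the smallest log2 fold change, -0.37 (adjusted p = 0.497 in limma, -0.18 without A4), at 9.30, 9.16 and 10.94 FPKM in control and 5.39, 7.87 and 9.21 FPKM in depleted mice. A4 was thus the highest mouse for Irf7 and the lowest for Irf3.

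**Figure D4:**
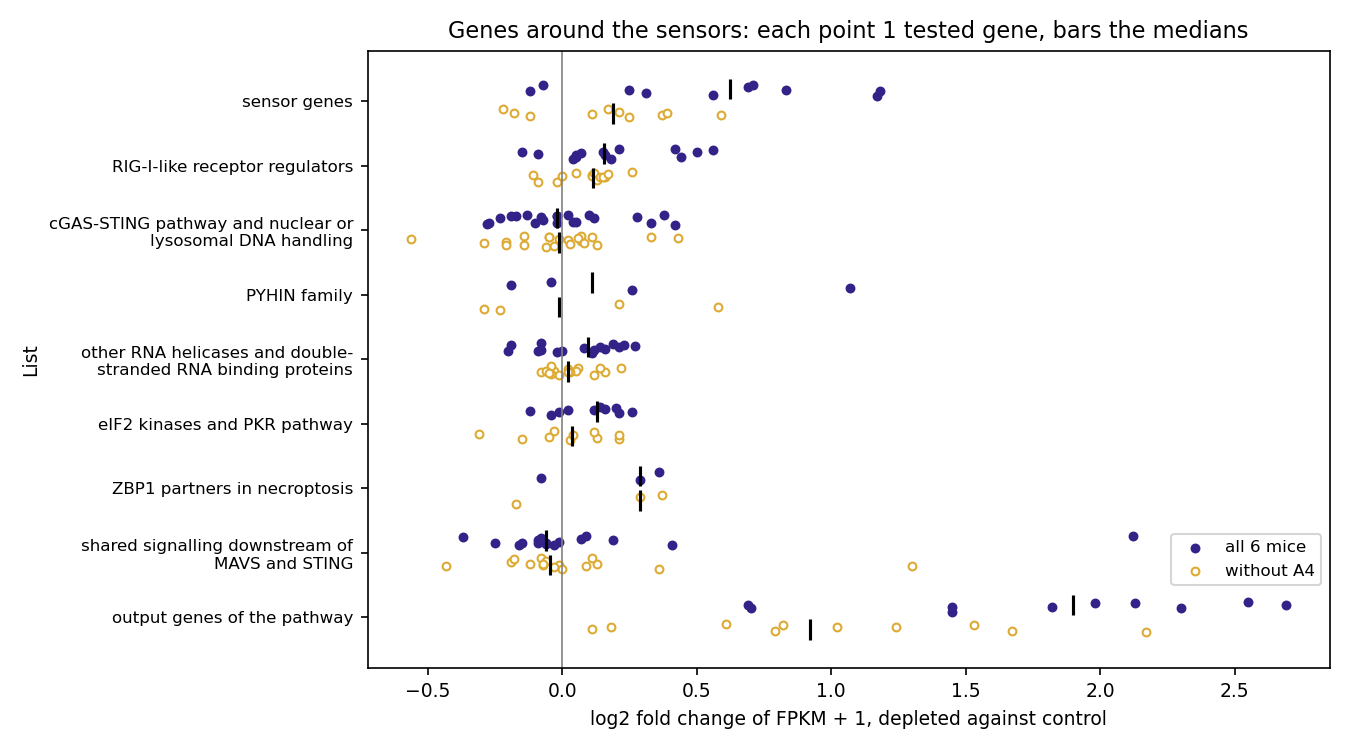
Log2 fold change of FPKM + 1, depleted against control, with 1 point per tested gene for the sensor genes and each list, over all 6 mice (filled) and without A4 (open), and vertical bars at the medians. The output genes have a median of 1.90 (0.92 without A4) and the sensor genes of 0.62 (0.19 without A4), while the medians of the other lists lie between -0.06 and 0.29.

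Of the 14 tested regulators of RIG-I-like receptors, 12 were higher on average (median 0.16, 0.12 without A4), and 2 had an unadjusted p-value under 0.05 in limma (10.5% of all genes), Rnf135 and Tax1bp1. Rnf135, a ubiquitin ligase that activates RIG-I, was at 1.69, 1.74 and 1.99 FPKM in control and at 3.86, 2.42 and 2.30 FPKM in depleted mice, with all depleted mice higher (log2 fold change 0.44, or 0.26 without A4). Ddx60 was at 2 FPKM in A4 and at 0.28 and 0.33 FPKM in A5 and A6, above control mice at 0.10 to 0.24 FPKM (log2 fold change 0.56, or 0.16 without A4). Trim25, another RIG-I ubiquitin ligase, was at 4.61 FPKM in A4 and at 1.10 and 1.97 in A5 and A6, with control mice at 1.16 to 1.47 FPKM (log2 fold change 0.50, or 0.11 without A4). Rnf5, which marks MAVS and STING for degradation, had the smallest log2 fold change, -0.15 (-0.09 without A4). The genes at an unadjusted p-value under 0.05 numbered 0 in this list without A4 in limma (13.2% of all genes).

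In the list for cGAS, STING and DNA handling, 9 of 21 tested genes were higher on average, with a median of -0.02 (-0.01 without A4). The sensor cGAS itself, listed as Mb21d1 and named here after its values were seen, was at 0.38, 0.46 and 0.39 FPKM in control and at 0.96, 0.21 and 0.46 FPKM in depleted mice, below the filter. Lysosomal Dnase2a had the largest log2 fold change, 0.42 (unadjusted p = 0.0147 and adjusted p = 0.393 in limma), with 1.93, 1.75 and 2.11 FPKM in control and 2.81, 2.59 and 3.35 FPKM in depleted mice. It was as large without A4, at 0.43. Samhd1, a dNTP hydrolase, was at 3.63 to 3.93 FPKM in control and at 5.54, 4.05 and 6.04 FPKM in depleted mice, and A6, not A4, was its highest mouse. Rad50 was at 6.05 FPKM in A4 and at 3.14 to 3.79 FPKM in the other mice. Tmem203 was lowest at -0.28 and at -0.56 without A4.

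Within the PYHIN family, 4 of 8 genes were tested. Mnda, which like Ddx60 and Pydc3 passed the filter through A4, was at 0.07, 0.03 and 0.14 FPKM in control and at 3.45, 1.21 and 0.18 FPKM in depleted mice (log2 fold change 1.07, unadjusted p = 0.0302 and adjusted p = 0.438 in limma, 0.58 without A4). Unlike Ifi204, it was higher in A5 than in A6. Pydc3 was at 0.26 (0.21 without A4), the inflammasome sensor Aim2 at -0.04 (-0.29 without A4) and Mndal at -0.19 (-0.23 without A4) on the log2 scale, and the groups overlapped in Aim2 and Mndal. Among the partners of ZBP1, Ripk1 was at 1.10, 1.25 and 1.41 FPKM in control and at 1.83, 2.11 and 1.73 FPKM in depleted mice (log2 fold change 0.36, unadjusted p = 0.0321 and adjusted p = 0.44 in limma, 0.37 without A4). Fadd was at 0.96 to 1.13 FPKM in control and 1.47 to 1.52 FPKM in depleted mice, also with no overlap, while Casp8 had the smallest log2 fold change, -0.08 (-0.17 without A4). The necroptosis effectors Ripk3 and Mlkl did not exceed 0.21 FPKM in any mouse and were below the filter.

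The other RNA helicases and double-stranded RNA binding proteins had a median log2 fold change of 0.10 over 16 genes (0.02 without A4), and 1 of them, Ddx1, had an unadjusted p-value under 0.05, against 10.5% of all genes (0.0308, adjusted p = 0.438 in limma, log2 fold change 0.19, or 0.14 without A4), at 56.29 to 59.79 FPKM in control and 63.89 to 71.33 FPKM in depleted mice. Dhx15, Ddx21 and Dhx33 had the largest values, 0.27, 0.23 and 0.21 (0.12, 0.02 and 0.16 without A4), and Adarb1, a second RNA-editing enzyme, the smallest, -0.20 (-0.05 without A4), with 32.12 FPKM in A4 and 42.11 to 46.84 FPKM in the other mice. Around PKR, 0 of 10 genes had an unadjusted p-value under 0.05 in limma (10.5% of all genes), and the median was 0.13 (0.03 without A4). Ppp1r15a and Ddit3, which respond to phosphorylated eIF2, were at 12.02 and 60.54 FPKM in A4 and at 5.50 to 6.55 and 26.87 to 32.94 FPKM in the other mice. Ppp1r15b had a log2 fold change of 0.20 (0.12 without A4) and Atf4 of -0.12 (-0.31 without A4).

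Transcripts of the interferons themselves were scarce. Of 21 interferon genes, 19 were in the table, 16 of these were listed at 0 in every mouse, and 0 reached the filter. Ifnb1 was at 0.28 FPKM in A4 and listed at 0 in the other 5 mice. Ifna14 was at 0.12 FPKM in A1, and Ifnz at 0.05 FPKM in A1 and 0.07 FPKM in A4.

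Bulk tissue cannot tell fewer cells of a type from less RNA per cell, so marker levels are given beside the sensors. The 7 myeloid markers in the table, led by Tyrobp, summed to 71.5, 61 and 71.1 FPKM in control and to 130, 79.2 and 98.4 FPKM in depleted mice, and 4 were higher at an unadjusted p-value under 0.05 in limma (4.79% of all genes). All depleted mice were above all control mice in this sum, and A4 was highest, as in most sensors. Not all microglial genes were higher, as Fcrls was at 8.19 to 13.30 FPKM in control and 3.83 to 7.91 FPKM in depleted mice, and P2ry12 at 8.50 to 10.24 and 6.45 to 7.91 FPKM. Monocyte and border macrophage markers, led by Lyz2, summed to 15.8 to 20.2 FPKM in control and to 23.8, 24.8 and 15.6 FPKM in depleted mice. These markers went both ways. Of the 7 tested, 2, Lyz2 among them, were higher and 2 lower at an unadjusted p-value under 0.05 in limma (4.79 and 5.74% of all genes). Plasmacytoid dendritic cell markers summed to 41.7 to 46.5 FPKM in control and 75.8, 51.8 and 52.1 FPKM in depleted mice, led by Tcf4, which neurons also express. The difference lies mostly in Bst2, an interferon-induced gene, as the other 4 markers summed to 40, 44.1 and 37.8 FPKM in control and 43.3, 43.8 and 41.3 FPKM in depleted mice. Of the T and NK cell markers, led by Cd4, the sums were 2.16 to 3.78 FPKM in the 6 mice. Cd3d and Cd3g were highest in A4, at 1.08 and 0.42 FPKM, against no more than 0.13 and 0.05 FPKM in the other mice. Cd3e and Gzma were listed at 0 in A4.

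Among the resident cells, astrocyte markers summed to 631, 563 and 584 FPKM in control and 736, 616 and 587 FPKM in depleted mice, with Slc1a2 the most abundant. The higher sum in A4 is due to Gfap: the other 5 markers summed to 543, 498 and 500 FPKM in control and to 436, 507 and 467 FPKM in depleted mice. Gfap, which reactive astrocytes raise, was at 300.31 FPKM in A4, at 108.51 and 120.13 FPKM in A5 and A6 and at 64.48 to 88.28 FPKM in control mice. Neuronal markers, led by Snap25, summed to 2309 to 2637 FPKM in control and 2272 to 2507 FPKM in depleted mice. Oligodendrocyte markers, led by Mbp, summed to 2746 to 2994 FPKM in control and 2419 to 2463 FPKM in depleted mice, and their precursors, led by Pdgfra, to 10.5 to 11 and 7 to 9.13 FPKM. Endothelial and pericyte markers, led by Ly6c1, summed to 46.1 to 50.1 and 49 to 52.2 FPKM, and meningeal fibroblast markers, led by Dcn, to 24.1 to 28.2 and 21.5 to 27.2 FPKM. Choroid plexus markers, led by Ttr, summed to 183, 323 and 167 FPKM in control and 70, 45.9 and 64.8 FPKM in depleted mice. In each of the marker lists given here every marker in the table was above 0 in at least 1 mouse. The part of these cell types in the sensor values was not tested.

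Across the 6 mice, the genes outside the set most like the mean centred log2(FPKM + 1) of the 10 sensors were Hmox1, Bcl7b, Irgm2, Ifi44 and Apod, with Pearson r from 0.9954 to 0.9977. These are descriptions over 6 mice in 2 groups and rest largely on A4. Without A4 the same 5 genes had r from 0.87 to 0.98 over 5 mice. They were picked for their r over mice that include these 5, so a high r here is partly built in. Hmox1, which encodes heme oxygenase, was at 4.16, 3.49 and 3.88 FPKM in control and at 8.91, 4.43 and 4.27 FPKM in depleted mice. Irgm2, an interferon-induced GTPase, was at 0.95 to 1.08 FPKM in control and at 6.13, 1.44 and 1.37 FPKM in depleted mice. Ifi44, also interferon-induced, passed the filter through A4, where it was at 8.10 FPKM, against no more than 0.67 FPKM in the other mice. Bcl7b was at 45.05 FPKM in A4 and 25.37 to 28.48 FPKM elsewhere, and Apod at 273.86 FPKM in A4 and 88.41 to 115.10 FPKM elsewhere.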

How the data were processed

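Cortical RNA of 3 control and 3 microglia-depleted mice was analysed from 1 table, in which each of the 6 columns is 1 mouse and 0 columns were left unassigned. The authors prepared poly(A)-selected libraries, used TopHat to align paired reads of 75 bases and RSEM to quantify known transcripts, and deposited FPKM values after TMM scaling, rounded to 2 decimals. The submitters' processing notes also name DESeq and mm9; tool versions and the annotation are not given in the sources used here. Here, log2(FPKM + 1) was compared with limma 3.58.1 in R 4.3.3 (eBayes with trend, no covariate, Benjamini-Hochberg adjustment over the 14385 genes past the filter of 0.5 FPKM, threshold 0.1), and single genes by exact permutation of the group means. The labels do not say that the mice are paired. Members and lists were chosen with earlier results of these data known, so lists have counts and medians only.

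Genes named were all 10 sensors, the 3 genes of each list that were highest and the 1 that was lowest in log2 fold change, with any past the threshold, the 5 genes most like the sensors, and the most abundant marker of each marker list given. Other genes were named after their values were seen: Mb21d1, Ripk3, Mlkl, Ifnb1, Ifna14, Ifnz, Bst2, Cd3d, Cd3g, Cd3e, Gzma, Gfap, Fcrls, P2ry12, Mx1, Oasl1, Xist, Tax1bp1, Ddx1, Atrip, Chrnb2 and the Y-linked genes. Fragments behind each value were estimated from low values of 2332 genes with 1 annotated transcript of 400 to 2000 bases, and the counts behind the sensors from their longest coding transcript in GENCODE M21 (GRCm38). In simulated data with independent normal noise, 200 genes were changed by 1 on the log2 scale in every depleted mouse. The fit called 165 of these 200 genes, with 16 false calls. Most sensors instead differed mainly in A4, so this share says nothing of the power for them. The depth estimate returned each of 5 simulated depths, but these were simulated with the same transcript lengths and without TMM scaling. The comparison was repeated with each mouse left out, array weights, robust eBayes, eBayes without trend, quantile normalization, scaling by median of ratios or to TPM, a filter at a mean of 1 FPKM or none, a pseudocount of 0.1 and a threshold of 0.05. Python 3.11.15, numpy 2.4.6, pandas 2.3.3 and matplotlib 3.10.9 were used for other steps.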

Additional observations from a re-analysis of the deposited data

How the results depend on the processing

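The number of sensor genes with an adjusted p-value under 0.1 in limma was 0 under each of the 15 alternatives, as in the main comparison, where 1 gene was under 0.05 unadjusted. That number was 2 with a pseudocount of 0.1 and 2 with TPM rescaling. Over all genes, 1510 and 1599 were under 0.05 there, against 1515 in the main comparison. With 1 mouse left out the number of sensor genes ran from 0 to 5. It was 0 without A2 or without A3, 2 without A4, 3 without A5 and 5 without A6. In these fits 951, 885, 1895, 2056 and 1878 of all 14385 genes were under 0.05. The number over all genes was 4 at an adjusted p-value under 0.1, against 2 in eBayes without trend, 20 with array weights, and from 2 without A1 to 29 without A5, with 8 without A6. The median log2 fold change of the sensor genes was above 0 throughout. It ran from 0.19 without A4 to 0.84 without A5 among the left-out mice, and was 0.40 with array weights. From 4 to 6 genes had groups without overlap in either direction, a number that leaving out a mouse can only keep or raise. With all mice the 4 genes had depleted mice higher, against 8.21% of all genes. The 5 without A4 were 4 with depleted mice higher, against 14.5% of all genes, and Adar with them lower, against 15.7%. For the other alternatives the share of all genes was not taken, so nothing is read from those counts. Of 150 log2 fold changes of single sensor genes under the alternatives, 147 kept their sign and 3 did not: Mavs at 0.04 without A1 and 0.03 without A6 (from -0.22 to 0.04 with 1 mouse left out), and Trex1 at -0.12 without A4 (from -0.12 to 0.51). The cause was not tested. Adjusted p-values of the 10 genes ranged from 0.204 to 0.99 over the alternatives.

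Depth limits the low genes most in A5, where about 4 fragments lay behind each of Zbp1 and Ifi204. In A5 the place of Dhx58, Zbp1, Eif2ak2 and Ifi204 above the control mice is within counting error. In A6 the same holds for Dhx58. The A6 intervals of Zbp1 and Eif2ak2 lay above every control value but overlapped intervals of control mice. For Zbp1 they were 0.544 to 1.37 FPKM in A6 and 0.287 to 0.846 FPKM in A1. For Eif2ak2 they were 2.7 to 3.72 FPKM in A6 and 2.13 to 2.79 FPKM in A2.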
